A study of Mus musculus with 13 samples.

Results

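Induced embryonic Sertoli cells (ieSC) were compared with the fetal organ whose supporting cell type they were made to resemble. On one side were 3 one-colour Cy3 expression arrays of ieSC, which are fibroblasts transdifferentiated with transgenes for Nr5a1, Wt1, Dmrt1, Gata4 and Sox9. Of these, 2 arrays held cells made from tail tip fibroblasts (TTF-ieSC) and 1 held cells made from mouse embryonic fibroblasts (MEF-ieSC). All ieSC had been kept for 6 months in medium with 2% serum and doxycycline. On the other were 2 arrays of whole male gonad at 14.5 dpc (days post coitum) from wild type mice, with no transgene and no culture. The series holds 13 arrays, and these 5 were chosen by their labels. The labels name no vector or promoter for the transgenes and do not say whether the cells were clonal, gonads were pooled, or replicates came from separate animals or cultures. A second MEF-ieSC array that the study's design mentions was not analysed here. Factors, long culture, serum and doxycycline all separate the ieSC from the gonad, and their parts in a difference cannot be told apart.

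Each array's deposited signals, on the log2 scale, had a median of 7.488. Of 31465 features with a gene name, 23232 lay above that median on at least 2 of the 5 arrays. They gave 15316 genes to test out of 20738 genes on the array. No detection flags came with the values, so a level below the median is called dim here, and a difference against a dim level depends on an unknown background. In a whole organ, fewer cells of a type and less RNA per cell cannot be told apart.

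The fetal testis is built from cords in which Sertoli cells, the somatic supporting cells, enclose the germ cells. Sertoli cells arise when Sry switches on Sox9, and they then signal outwards: Amh removes the Müllerian duct, Dhh acts on interstitial cells that become steroid-making Leydig cells, and Cyp26b1 destroys retinoic acid, which keeps germ cells out of meiosis. Around the cords lie Leydig cells, interstitial progenitors, vessels, macrophages and peritubular cells. The whole organ is thus a mixture of which Sertoli cells are one part.

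The ieSC and gonad arrays were far apart relative to their replicates. The root mean square log2 difference over tested genes was 1.819 to 1.838 between an ieSC array and a gonad array. It was 0.239 between the 2 TTF-ieSC arrays, 0.443 to 0.451 between these and the MEF-ieSC array, and 0.136 between the 2 gonad arrays. At an adjusted p under 0.05 (limma, 3 ieSC against 2 gonad arrays, Benjamini-Hochberg over all tested genes), 12572 of 15316 genes differed, which is 82.1%. Of these, 6095 were higher in ieSC (39.8% of tested genes) and 6477 were lower (42.3%). A log2 difference of at least 1 was reached by 5660 of the called genes (37.0% of tested genes), 2501 of them higher (16.3%) and 3159 lower (20.6%). Because most genes passed the test, the counts of gene lists below are given for genes called with a difference of at least 1, and are read against those 16.3% and 20.6%. A gene dim on every array of 1 side entered the test through the other side, so the filter largely set its direction, up or down. The shares over all tested genes include such genes too, but lists differ in how many they hold. The median difference over all tested genes was -0.03. All differences are log2, ieSC minus gonad, with the standard error of the fit. The 3 ieSC values of a gene are those of both TTF-ieSC arrays and then of the MEF-ieSC array.

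The largest rise was in Ccl2, a chemokine which attracts monocytes. It read 18.51, 18.55 and 17.98 in ieSC and 8.31 and 8.16 in the gonad, a difference of 10.11 ± 0.16 (limma, adjusted p = 1.14e-11). The acute-phase gene Saa3 read 15.85, 16.08 and 15.50 in ieSC, against 6.41 and 6.82 in the gonad. The protease inhibitor Serpina3n read 15.73, 15.77 and 14.87 in ieSC, against 7.25 and 6.90 in the gonad. Each of these was at or near the dim range in the organ and far above it on all 3 ieSC arrays. Prph, an intermediate filament of peripheral neurons, rose by 7.998 ± 0.10. Msln, a surface protein of mesothelium, rose by 7.98 ± 0.14, and the homeobox gene Tlx2 by 7.85 ± 0.19. The phosphate transporter Slc34a3 (7.83 ± 0.57), the ATP-gated channel P2rx2 (7.83 ± 0.08), Cwh43 (7.77 ± 0.35) and the liver-type plasma protein Itih4 (7.58 ± 0.11) complete the 10 genes with the largest rise.

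Of the 10 largest falls, 3 were in beta globins: Hbb-bt read 4.93, 5.42 and 5.23 in ieSC and 17.79 and 17.89 in the gonad, a fall of 12.65 ± 0.32 (limma, adjusted p = 2.18e-10), and Hbb-b2 and Hbb-y fell by 11.72 ± 0.28 and 11.52 ± 0.38. The globins are close copies of each other, so their features may share signal. Cxcl12, a stromal chemokine that guides germ cells, read 5.12, 5.08 and 5.96 in ieSC and 16.27 and 16.23 in the gonad. Cyp11a1, which makes the first steroid from cholesterol, read 5.72, 4.36 and 4.58 in ieSC and 15.56 and 15.64 in the gonad. The imprinted gene Dlk1 read 6.46, 6.52 and 6.70 in ieSC and 17.10 and 17.17 in the gonad. All 3 were dim on every ieSC array and bright on both gonad arrays. The others were the alcohol dehydrogenase Adh1 (-10.46 ± 0.43), the germ cell gene Dppa5a (-10.20 ± 0.13), the kinase subunit Prkar2b (-9.87 ± 0.12) and the Sertoli cell defensin Defb19 (-9.87 ± 0.62).

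**Figure D1:**
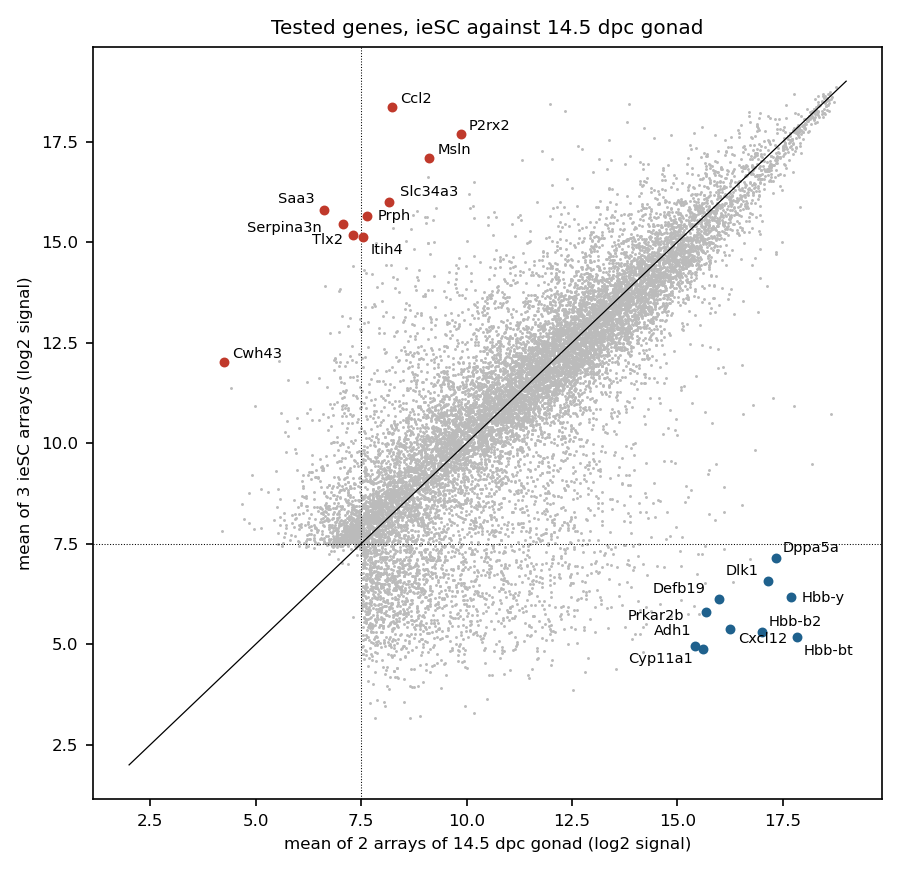
Mean log2 signal of the 3 ieSC arrays (vertical axis) against the mean of the 2 gonad arrays (horizontal axis) for the 15316 tested genes. Red and blue points mark the 10 largest rises and the 10 largest falls, the solid line marks equal signal and the dotted lines the array median of 7.488; the blue points lie below that median in ieSC.

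Of the 5 factors the ieSC carry as transgenes, only Wt1 was above its level in the gonad. Wt1, a zinc finger regulator needed to form the gonad, read 16.48, 16.49 and 16.58 in ieSC and 15.86 and 15.88 in the gonad (0.64 ± 0.06, limma, adjusted p = 6.75e-06). Nr5a1, the nuclear receptor that drives steroid genes and Amh, read 9.37, 9.36 and 8.94 in ieSC and 15.71 and 15.76 in the gonad (-6.51 ± 0.13, adjusted p = 4.57e-11, limma). Gata4 read 6.70, 7.15 and 6.92 in ieSC, dim on every array, against 13.91 and 14.03 in the gonad (-7.05 ± 0.13). Sox9, the factor that sets Sertoli fate, fell by 2.73 ± 0.17, and its 10 features gave differences of -2.73 to -2.54. Dmrt1 fell by 1.72 ± 0.07. The ieSC and gonad arrays did not overlap for any of the 5, beside 42.9% of all tested genes with every ieSC array above the gonad and 45.6% with every one below. The position of a feature within its transcript is unknown, so it is also unknown whether a feature reads transgene RNA, endogenous RNA or both. Leydig cells also express Nr5a1 and Gata4, so the gonad levels are not those of Sertoli cells alone.

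The other transcription factors of the early gonad were lower as well. Of 12 matched genes 11 were tested, and all 11 were lower by at least 1 (median over the 12 matched -2.44). The ieSC mean was dim for 5 of the 12 and the gonad mean for 1. Tcf21, a factor of gonad mesenchyme, fell by 7.27 ± 0.11, Nr0b1, a repressor that works with Nr5a1, by 4.58 ± 0.24, and Gadd45g, needed to switch on Sry, by 4.37 ± 0.18. Among factors needed for the gonad to form, Lhx9 fell by 2.57 ± 0.19, Emx2 fell by 4.12 ± 0.34 and Cbx2 fell by 1.54 ± 0.07. Sry was dim on all 5 arrays, as 6.62, 6.84 and 6.72 in ieSC and 6.43 and 6.34 in the gonad, and was not tested.

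Embryonic Sertoli cell genes ran from above the organ's level to far below it. All 31 matched genes were tested: 4 were called higher by at least 1 (12.9%, beside 16.3% of all tested genes), 17 lower by at least 1 (54.8%, beside 20.6%), and the median difference was -1.82. The ieSC mean was dim for 9 of the 31 and the gonad mean for none. Members dim on all ieSC arrays entered the test through the gonad arrays and could not be called higher. Among the signalling genes, Dhh was nearly level with the whole organ. It read 15.65, 15.68 and 15.87 in ieSC and 15.86 and 15.95 in the gonad (-0.17 ± 0.08, adjusted p = 0.0662, limma), so the MEF-ieSC array fell within the gonad range. Without that array the difference was -0.24 and passed (limma, adjusted p = 0.00701). Gdnf, the growth factor for spermatogonial stem cells, read 14.06, 13.996 and 13.55 in ieSC and 12.82 and 12.64 in the gonad, a rise of 1.14 ± 0.15. Amh read 7.30, 7.42 and 7.30 in ieSC, all dim, and 12.33 and 12.36 in the gonad, a fall of 5.01 ± 0.17 (limma, adjusted p = 1.52e-09), so this defining product of the embryonic Sertoli cell was dim in ieSC. The inhibin subunits Inha and Inhbb fell by 4.77 ± 0.06 and 4.39 ± 0.07. Fgf9, which sustains Sox9, did not pass the test (-0.20 ± 0.18, limma, adjusted p = 0.317; -0.64 in MEF-ieSC alone), and neither did the Kit ligand gene Kitl (-0.32 ± 0.35, limma, with an adjusted p of 0.411).

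Secreted products and structural genes of Sertoli cells also lay on both sides of the organ's level. The prostaglandin D synthase Ptgds read 18.03, 18.14 and 17.50 in ieSC and 16.88 and 16.90 in the gonad (0.998 ± 0.15). The keratin Krt18 read 18.10, 18.13 and 17.68 in ieSC and 13.78 and 13.81 in the gonad (4.18 ± 0.13), while its partner Krt8 differed by only 0.34 ± 0.14, a call lost without the MEF-ieSC array or either gonad array. The collagen Col9a3 rose by 3.15 ± 0.18, the protease inhibitor Serpine2 by 1.97 ± 0.10, the calcium-binding Tesc by 0.88 ± 0.07 and Gatm, an enzyme of creatine synthesis, by 0.85 ± 0.08. Clu, a secreted chaperone, read 17.86, 17.81 and 17.82 in ieSC and 17.74 and 17.76 in the gonad and did not pass the test (0.08 ± 0.08, limma, adjusted p = 0.377). The homeobox gene Rhox8 did not pass either (0.08 ± 0.11, limma, adjusted p = 0.494), but its other feature gave -2.51. On the low side, Defb19 read 6.55, 6.50 and 5.29 in ieSC and 15.92 and 16.05 in the gonad. Aard read 5.83, 5.20 and 6.85 in ieSC and 15.38 and 15.42 in the gonad, a fall of 9.44 ± 0.35. Mro fell by 6.74 ± 0.14 (by 3.33 on its other feature), Mmd2 by 6.32 ± 0.33 and Hsd17b3, which makes testosterone in the fetal Sertoli cell, by 6.26 ± 0.14. All 5 were dim on every ieSC array.

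**Figure D2:**
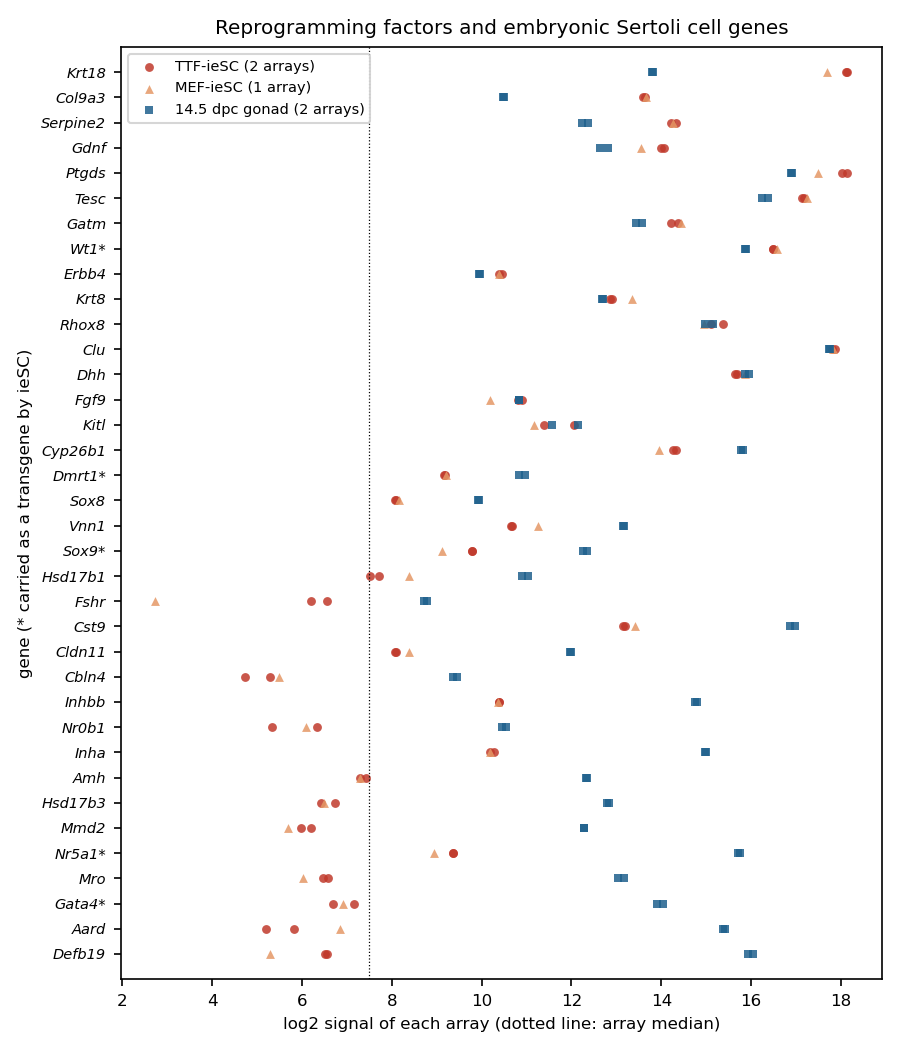
Log2 signal on each of the 5 arrays for the 5 transgene factors and the 31 embryonic Sertoli cell genes, ordered by the difference between ieSC and gonad. Points are single arrays and the dotted line is the array median; genes from Krt18 to Krt8 lie right of the gonad on all 3 ieSC arrays, and those from Cyp26b1 down to Defb19 lie left of it.

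The list also held junction, enzyme and secreted protein genes. Cldn11, which seals the barrier between Sertoli cells, read 8.10, 8.07 and 8.39 in ieSC and 11.96 and 11.99 in the gonad (-3.79 ± 0.09). Cst9 read 13.16, 13.20 and 13.42 in ieSC and 16.98 and 16.85 in the gonad, a difference of -3.66 ± 0.53, though well above the array median. The estrogen enzyme Hsd17b1 fell by 3.10 ± 0.20, Vnn1 by 2.30 ± 0.15, the secreted Cbln4 by 4.25 ± 0.23 and Sox8, a close relative of Sox9, by 1.82 ± 0.08. Erbb4, a growth factor receptor, rose by 0.46 ± 0.18 (limma, adjusted p = 0.0368), a call that was lost when any 1 of the 5 arrays was left out (adjusted p = 0.0569 to 0.118, limma). The follicle-stimulating hormone receptor gene Fshr read 6.56, 6.20 and 2.74 in ieSC and 8.78 and 8.72 in the gonad. All 3 of its ieSC values were dim, and the MEF-ieSC value was the lowest.

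Hedgehog genes went both ways. In the testis Dhh comes from Sertoli cells, and its receptor Ptch1, its target Gli1 and the decoy receptor Hhip are made by interstitial cells. Gli1 read 8.33, 8.37 and 9.04 in ieSC and 14.53 and 14.56 in the gonad, a fall of 5.97 ± 0.18 (limma, adjusted p = 7.73e-10). Hhip fell by 5.51 ± 0.20 and Ptch1 by 1.09 ± 0.06. The ligand Shh fell by 1.61 ± 0.16 and Ihh by 0.58 ± 0.11, both near or below the array median in each group. The co-receptors Cdon and Gas1 rose by 1.74 ± 0.08 and 1.16 ± 0.06. Of the 12 hedgehog genes, 2 were higher (16.7%) and 4 lower (33.3%) by at least 1, beside 16.3% and 20.6% of all tested genes.

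Interstitial progenitor and fetal Leydig cell genes were lower throughout. All 12 tested genes of the interstitial progenitor list were called lower, 11 of them by at least 1 (91.7%, median -4.58). Gli1, Hhip, Ptch1, Lhx9 and Tcf21, given above, are members of it. Wnt5a, a signal of gonad mesenchyme, read 7.34, 7.62 and 7.86 in ieSC and 14.82 and 14.66 in the gonad. Pdgfra, a receptor of Leydig progenitors, read 9.82, 9.84 and 9.004 in ieSC and 14.77 and 14.59 in the gonad, and Nr2f2, an orphan receptor of the same cells, fell by 3.24 ± 0.10. Nr2f1 differed by only -0.26 ± 0.08, its other feature gave 0.08, and its call was lost without gonad replicate 2. All 10 matched Leydig genes were called lower, 9 by at least 1 (90.0%, median -5.99). The ieSC mean was dim for 5 of these 10 and for 3 of the 12 interstitial genes, and the gonad mean for none. Members dim on all ieSC arrays entered the test through the gonad arrays and could not be called higher. Hsd3b1, which makes progesterone, read 6.87, 6.78 and 7.72 in ieSC and 16.71 and 16.72 in the gonad (-9.59 ± 0.25). Star, which carries cholesterol into mitochondria, read 7.80, 7.72 and 7.74 in ieSC and 13.91 and 13.88 in the gonad. Cyp17a1 read 11.18, 10.93 and 10.76 in ieSC and 16.78 and 16.82 in the gonad, so it stayed above the array median on all 5 arrays. Hsd3b6, Cyp11b1 and the ACTH receptor gene Mc2r fell by 6.67 ± 0.32, 6.29 ± 0.38 and 5.69 ± 0.44. The less specific members Fdx1 and Scarb1 remained bright and fell by 2.84 ± 0.06 and 1.09 ± 0.08, and Gramd1b fell by 0.23 ± 0.08, a call lost without TTF-ieSC replicate 2 or gonad replicate 1.

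Germ cell genes were lower as a block. All 28 matched genes were tested, 26 were called lower by at least 1 (92.9%) and none higher, with a median of -5.89. In ieSC 19 of the 28 had a mean below the array median, and in the gonad none did. Genes dim on all ieSC arrays entered the test through the gonad arrays and could not be called higher. Dazl, an RNA-binding protein that licenses germ cells, read 5.10, 4.76 and 5.54 in ieSC and 14.01 and 13.86 in the gonad (-8.80 ± 0.30, limma, adjusted p = 2.02e-09). Ddx4, the germ cell RNA helicase, read 4.42, 6.03 and 6.04 in ieSC and 14.21 and 14.32 in the gonad. Dppa3 read 5.78, 7.51 and 3.99 in ieSC and 15.49 and 15.53 in the gonad. The ieSC values of Dazl and Ddx4 were dim on every array, and those of Dppa3 lay at or below the array median with a wide spread. Tex19.1, Dppa4 and the kinase gene Stk31 fell by 9.77 ± 0.32, 7.51 ± 0.45 and 7.37 ± 0.26. The pluripotency factor Pou5f1, still active in fetal germ cells, fell by 5.52 ± 0.09, the receptor Kit by 6.53 ± 0.11, and the male fate regulator Nanos2 by 5.68 ± 0.12. Genes of the chromosome structures of meiosis followed, Sycp3 by 4.87 ± 0.10, Sycp1 by 5.91 ± 0.53 and Hormad1 by 5.23 ± 0.73.

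A few germ cell genes stayed above the 75th percentile of the array (10.473) in ieSC. Lin28a, which blocks let-7 maturation, read 11.90, 11.98 and 11.35 in ieSC and 13.33 and 13.35 in the gonad (-1.60 ± 0.16). Nanos3 read 11.65, 11.64 and 11.40 in ieSC and 13.63 and 13.64 in the gonad (-2.07 ± 0.07), and Taf7l fell by 1.23 ± 0.06. Sall4 (0.05 ± 0.06, limma, adjusted p = 0.461) and Nanog (0.14 ± 0.07, adjusted p = 0.0954, limma) did not pass the test, but their features disagreed. The lowest of the 3 Sall4 features gave -1.57 and the other Nanog feature gave -6.53, so neither gene has a settled direction. In the piRNA pathway, which silences transposons in germ cells, 15 of 16 matched genes were tested, 12 were lower by at least 1 (80.0%) and none was called higher (median over the 16 matched -3.18). The ieSC mean was dim for 12 of the 16 and the gonad mean for 1. Mael and Gtsf1 fell by 8.60 ± 0.32 and 6.97 ± 0.10. Tdrd1 missed the threshold (-0.17 ± 0.18, limma, adjusted p = 0.387).

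The promoters of these genes are shown because they fell together. Of 37 different germ cell and piRNA genes called lower, 29 had a promoter in the RefSeq table (build GRCm38.p6, 250 bases before to 50 bases after the start, 1 promoter per gene). The median number of CpG dinucleotides in these 300 bases was 20, against 7 over the 27025 genes of the table. At least 20 CpG were present in 15 of the 29 (51.7%), against 26.8% of all genes of the table. That table was not limited to genes on the array or to tested genes, so the sets are unlike, and no matched share was computed. Ddx4 (chr13:112652261-112652560, minus strand) holds 38 CpG, Dazl (chr17:50293571-50293870, minus strand) 28, Mael (chr1:166238695-166238994, minus strand) 24, and Nanos2 (chr7:18987274-18987573, plus strand) 0. The CpG are in capitals, read 5′ to 3′ on the gene's strand, and CG, which reads the same on both strands, was the only motif searched. The arrays measured RNA and hold no methylation values, so the letters describe the genes and not their state in these cells.
Ddx4: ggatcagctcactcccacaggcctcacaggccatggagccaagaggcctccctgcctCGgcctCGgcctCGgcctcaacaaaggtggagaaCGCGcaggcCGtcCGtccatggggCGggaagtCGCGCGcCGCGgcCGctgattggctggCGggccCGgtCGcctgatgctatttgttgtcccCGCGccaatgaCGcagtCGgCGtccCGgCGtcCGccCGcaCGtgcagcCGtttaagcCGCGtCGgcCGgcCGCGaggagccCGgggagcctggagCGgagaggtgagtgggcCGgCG
Dazl: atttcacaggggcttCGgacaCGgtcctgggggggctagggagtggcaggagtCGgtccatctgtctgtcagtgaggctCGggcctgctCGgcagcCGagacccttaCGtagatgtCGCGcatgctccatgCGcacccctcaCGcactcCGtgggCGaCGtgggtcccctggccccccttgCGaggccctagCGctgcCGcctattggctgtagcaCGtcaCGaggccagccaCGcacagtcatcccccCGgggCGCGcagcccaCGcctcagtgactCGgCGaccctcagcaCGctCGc
Mael: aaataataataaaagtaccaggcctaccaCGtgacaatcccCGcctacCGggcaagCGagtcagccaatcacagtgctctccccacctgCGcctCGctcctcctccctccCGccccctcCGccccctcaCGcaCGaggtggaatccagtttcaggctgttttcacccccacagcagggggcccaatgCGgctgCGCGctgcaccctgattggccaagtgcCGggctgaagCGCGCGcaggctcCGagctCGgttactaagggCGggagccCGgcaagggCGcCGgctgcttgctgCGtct
Nanos2: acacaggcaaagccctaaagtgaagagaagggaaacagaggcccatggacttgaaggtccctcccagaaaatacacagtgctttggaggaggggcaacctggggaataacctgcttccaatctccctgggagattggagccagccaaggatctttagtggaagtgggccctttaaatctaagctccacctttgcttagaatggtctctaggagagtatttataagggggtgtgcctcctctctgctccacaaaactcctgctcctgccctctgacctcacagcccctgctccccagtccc

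Genes of blood and vessels were lower, with named exceptions. For erythroid genes, 18 of 19 matched were tested, 11 were lower by at least 1 (61.1%) and 3 higher (median -4.24). The ieSC mean was dim for 8 of the 19 and the gonad mean for 1. Beside the beta globins, Hba-a1 and Hba-a2 fell by 8.70 ± 0.33 and 7.92 ± 0.37, and as near-identical copies they may share signal. Hba-a2 read 10.17, 10.28 and 11.73 in ieSC and 18.62 and 18.68 in the gonad, so it was not dim in ieSC. The 3 that were higher were regulators: Klf1 read 12.16, 12.21 and 12.45 in ieSC and 8.08 and 8.08 in the gonad (4.19 ± 0.11), Gata1, which mouse Sertoli cells also make, rose by 2.97 ± 0.55, and the erythropoietin receptor gene Epor by 2.90 ± 0.09. Of 31 matched endothelial genes 29 were tested, 23 were lower by at least 1 (79.3%) and 1 higher (median -2.79). The ieSC mean was dim for 12 of the 31 and the gonad mean for 2. Cdh5, the cadherin of vessel walls, read 6.31, 5.45 and 5.33 in ieSC and 12.17 and 12.28 in the gonad. Cldn5 fell by 5.96 ± 0.07, Mmrn2 fell by 5.23 ± 0.08 and Pecam1 fell by 1.67 ± 0.09. Esam, an adhesion molecule, rose by 1.51 ± 0.09, the nitric oxide synthase Nos3 by 0.93 ± 0.11 and Egfl7 by 0.33 ± 0.07. Kdr did not pass the test (0.02 ± 0.11, limma, adjusted p = 0.865), but its 11 features ran from -7.45 to 0.02.

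Macrophage, smooth muscle and duct genes were mostly lower too, and glial genes went both ways. Of 26 matched macrophage genes 22 were tested, 16 were lower by at least 1 (72.7%) and 2 higher (median -2.35). The ieSC mean was dim for 20 of the 26 and the gonad mean for 4. Mrc1, Tyrobp and F13a1 fell by 5.48 ± 0.60, 4.89 ± 0.44 and 4.74 ± 0.23 and were dim in ieSC. The other F13a1 feature gave 0.58. Among the markers that define the type, Csf1r fell by 1.21 ± 0.15 with its 3 features running from -1.21 to 0.23, Adgre1 fell by 0.82 ± 0.12 (-5.42 on its other feature), and Cd68 was dim on all 5 arrays and not tested. The folate receptor gene Folr2 read 14.10, 14.09 and 14.24 in ieSC and 8.29 and 8.22 in the gonad (5.89 ± 0.09), and the lipopolysaccharide co-receptor gene Cd14 rose by 3.54 ± 0.13. In smooth muscle and peritubular cells, 9 of 13 tested genes were lower (69.2%) and 3 higher (23.1%) by at least 1 (14 matched, median -1.38). Myl9 fell by 7.02 ± 0.06, Itga8 by 5.06 ± 0.10 and Acta2 by 2.62 ± 0.18, while Smtn, Cnn1 and Tpm2 rose by 2.25 ± 0.14, 1.97 ± 0.23 and 1.34 ± 0.07. Of 8 matched mesonephric duct genes 7 were tested and all were called lower, 6 by at least 1 (85.7%, median -1.36), led by Emx2, Ret (-3.82 ± 0.22) and Pax8 (-2.30 ± 0.15). The ieSC mean was dim for 6 of the 8 and the gonad mean for 1. Of 10 matched glial genes, 4 of the 9 tested were higher (44.4%) and 3 lower (33.3%) by at least 1 (median 0.25). Ngfr fell by 7.05 ± 0.06 and Fabp7 fell by 4.78 ± 0.31, while Ptprz1 rose by 3.81 ± 0.10 on 1 feature with its 3 features running from -0.08 to 3.81.

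Fibroblast genes were mostly below the level of the organ, which has its own stroma. Of 33 matched fibroblast identity genes 32 were tested, 23 were lower by at least 1 (71.9%) and 2 higher (median -2.77). The ieSC mean was dim for 16 of the 33 and the gonad mean for 1. The elastic fibre gene Mfap4 fell by 8.34 ± 0.09 and the matrix protease Mmp2 by 8.33 ± 0.09. Thy1, a fibroblast surface antigen, read 6.01, 6.60 and 7.18 in ieSC and 9.68 and 9.72 in the gonad. Of the type I collagen chains, Col1a2 read 10.996, 10.84 and 10.92 in ieSC and 17.83 and 17.71 in the gonad (-6.85 ± 0.07), whereas Col1a1 read 16.12, 16.15 and 16.88 in ieSC and 16.29 and 16.22 in the gonad and did not pass the test (0.13 ± 0.19, limma, adjusted p = 0.537; 0.63 in MEF-ieSC alone, -0.12 in TTF-ieSC alone). S100a4 rose by 4.01 ± 0.11, Pi16 by 1.60 ± 0.16 and the proteoglycan gene Dcn by 0.80 ± 0.23, the last call being lost without gonad replicate 2.

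Mesothelial, granulosa and cartilage lists each included genes with large rises. Mesothelium is the lining of the body cavity and, like the gonad surface, expresses Wt1. Of 12 matched mesothelial genes, 6 were higher and 3 lower by at least 1 (median 1.31). Msln read 17.25, 17.30 and 16.74 in ieSC and 9.09 and 9.15 in the gonad. Gpm6a, a membrane glycoprotein, read 14.48, 14.50 and 13.96 in ieSC and 8.90 and 8.87 in the gonad, and Lrrn4 rose by 3.61 ± 0.53. The uroplakin genes Upk3b and Upk1b rose by 3.09 ± 0.17 and 3.06 ± 0.23. Against that, the retinoic acid enzyme Aldh1a2 fell by 6.86 ± 0.09, Bnc2 fell by 2.54 ± 0.21 and the keratin Krt19 by 2.26 ± 0.12. Of 13 granulosa and ovarian genes, 4 were higher (30.8%) and 4 lower (30.8%) by at least 1 (median -0.36). Gng13 read 15.27, 15.35 and 16.20 in ieSC and 10.14 and 10.21 in the gonad, and the transcription factors Runx1 and Irx5 rose by 3.33 ± 0.07 and 2.15 ± 0.08. The ovarian signal Rspo1 rose by 1.55 ± 0.11. More members were called lower than higher (7 against 4): the inhibin subunit gene Inhba fell by 4.57 ± 0.08, the growth factor gene Bmp2 fell by 4.42 ± 0.11 and the Wnt receptor gene Lgr5 fell by 2.48 ± 0.16. Foxl2, the main ovarian factor, did not pass the test (-0.25 ± 0.24, limma, adjusted p = 0.355), and its features gave -0.25 and 0.52. Of 14 matched cartilage genes, 5 of 12 tested were higher (41.7%) and 2 lower (16.7%) by at least 1 (median 0.64). Col11a2 read 14.23, 14.27 and 14.68 in ieSC and 7.35 and 7.29 in the gonad, and the proteoglycan Acan rose by 3.67 ± 0.15 and the Sox9 partner Sox6 by 2.55 ± 0.13, while Col2a1 did not pass the test (-0.06 ± 0.15, limma, adjusted p = 0.716). The collagen chain gene Col9a2 fell by 1.60 ± 0.06 and the matrix link gene Hapln1 fell by 1.58 ± 0.13, and Sox5 fell by 0.94 ± 0.13 while its features ran from -0.94 to 0.40.

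The Hox genes, whose combination marks position along the body, separated by cluster. All 10 genes of the Hoxa cluster were called higher in ieSC, beside 39.8% of all tested genes, with a median of 2.11 and a range of 0.42 to 5.13. Of these, 7 were higher by at least 1, beside 16.3% of all. All 9 tested of 10 Hoxb genes and all 6 tested of 9 Hoxc genes were lower by at least 1, beside 20.6% of all, with medians over matched genes of -2.68 and -2.27. Apart from Hoxb9, these tested genes had ieSC means below the array median. They passed the filter through the gonad arrays, so the filter left no room for a call in the other direction. Hoxa11, a limb and urogenital gene, read 12.43, 12.39 and 12.44 in ieSC and 7.37 and 7.20 in the gonad. Hoxa7 read 13.80, 13.72 and 13.93 in ieSC and 10.23 and 10.15 in the gonad. Hoxc9 read 5.51, 3.95 and 5.07 in ieSC and 10.81 and 10.89 in the gonad, and Hoxc6 and Hoxc4 fell by 5.86 ± 0.10 and 5.35 ± 0.18. Within the Hoxd cluster 5 of 7 tested genes were lower and 2 higher by at least 1: Hoxd13, the most distal, read 11.74, 11.65 and 11.35 in ieSC and 5.77 and 5.75 in the gonad, and Hoxd11 rose by 2.24 ± 0.07. Among 12 matched limb and skin position factors, 3 of 9 tested were higher (33.3%) and 2 lower (22.2%) by at least 1. Their median of 0.28 was 0.66 without the MEF-ieSC array, 0.45 without gonad replicate 1 and 0.19 without TTF-ieSC replicate 1. The hindlimb gene Pitx1 rose by 3.61 ± 0.26 and Tbx18 by 3.62 ± 0.09, while Tbx4 fell by 5.82 ± 0.50. The starting fibroblasts came from tail tips or embryos, and for all 32 tested Hox genes the 3 ieSC arrays lay on the same side of both gonad arrays, beside 42.9% of all tested genes above and 45.6% below.

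**Figure D3:**
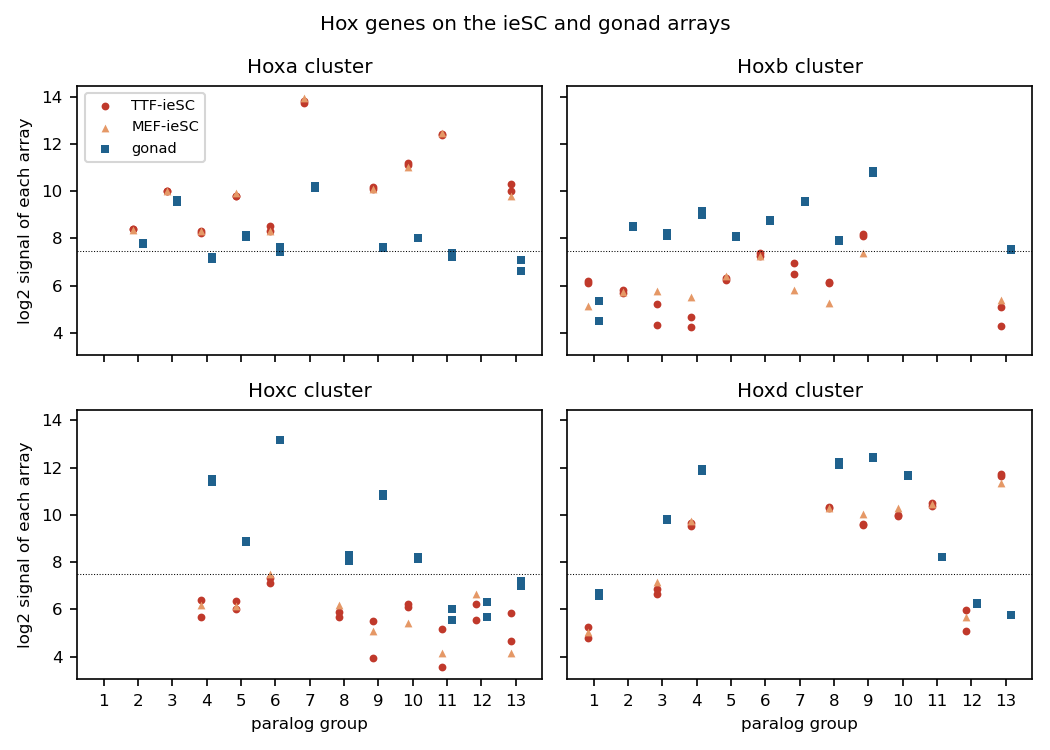
Log2 signal of each array for the Hox genes by cluster and paralog group (1 is 3′, 13 is 5′); circles are TTF-ieSC, triangles MEF-ieSC, squares gonad, and the dotted line is the array median. The ieSC lie above the gonad across the Hoxa cluster and at Hoxd11 and Hoxd13, and below it at the tested Hoxb and Hoxc genes.

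Most cell division genes differed from the organ by less than 1, while most members of the list of cell cycle inhibitors and p53 targets were higher by more than that. Of 42 matched division genes 41 were tested, and only 1 was higher (2.44%) and 5 lower (12.2%) by at least 1, against 16.3% and 20.6% of all tested genes (median -0.44). The spindle checkpoint kinase Bub1 fell by 1.92 ± 0.07, and the ribonucleotide reductase subunit Rrm1 rose by 1.40 ± 0.08. Mki67 read 15.28, 15.26 and 15.09 in ieSC and 15.48 and 15.49 in the gonad (-0.28 ± 0.06). Of 21 cell cycle inhibitors and p53 targets, 14 were higher (66.7%) and 1 lower by at least 1 (median 1.78). Perp, a p53 target of cell contacts, read 15.66, 15.67 and 15.52 in ieSC and 8.996 and 9.15 in the gonad (6.54 ± 0.08, limma, adjusted p = 3.41e-12). Cdkn1a, the p21 inhibitor, read 14.53, 14.63 and 14.55 in ieSC and 10.89 and 10.83 in the gonad, and its 12 features gave 1.17 to 3.78. Btg2 rose by 3.84 ± 0.08. The members called lower were Mdm2 (-0.48 ± 0.09), which restrains p53, and, as the only one by at least 1, Cdkn1c, an imprinted inhibitor, which read 5.86, 6.25 and 7.45 in ieSC and 15.67 and 15.64 in the gonad.

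Imprinted growth genes of the fetus were lower. Of 31 matched imprinted genes 29 were tested, 20 were lower by at least 1 (69.0%) and 1 higher (median -1.87). The ieSC mean was dim for 11 of the 31 and the gonad mean for 2. Some members, such as Cdkn1c, stand in more than 1 list. Meg3, the maternal partner of Dlk1 in the same imprinted region, read 6.04, 6.30 and 6.16 in ieSC and 15.89 and 15.99 in the gonad, and its 3 features gave -9.77 to -2.95. Igf2 fell by 4.56 ± 0.15, while its neighbour H19 read 17.23, 17.31 and 18.03 in ieSC and 17.49 and 17.58 in the gonad and did not pass the test (-0.01 ± 0.20, limma, adjusted p = 0.969). Mest rose by 1.26 ± 0.06 and was bright in both groups.

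Immediate early and inflammatory genes were higher in ieSC. Immediate early genes respond within minutes to serum, stress or handling. Of 22 matched, 21 were tested, 20 were called higher, 17 of them by at least 1 (81.0%), with a median of 2.93. Fos read 15.85, 15.76 and 15.90 in ieSC and 10.06 and 10.09 in the gonad (5.76 ± 0.06, limma, adjusted p = 2.21e-12). Egr2 rose by 4.96 ± 0.40 and Ier3 by 4.57 ± 0.08, and only Jund was called lower (-0.25 ± 0.09), a call lost without TTF-ieSC replicate 1 or gonad replicate 2. Of 21 matched inflammatory factors 13 were tested, and 10 were higher by at least 1 (76.9%, median over the 21 matched 0.95). The gonad mean was dim for 13 of the 21 and the ieSC mean for 8. Tested members dim on both gonad arrays, such as Saa3, passed the filter through the ieSC arrays, which left little room for a call of lower. Ccl7, a chemokine beside Ccl2, read 14.07, 14.16 and 13.51 in ieSC and 6.74 and 6.52 in the gonad. Nos2 was the only member called lower (-0.36 ± 0.08), and the other 8 matched genes were dim.

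Most antigen presentation genes rose, while interferon genes went both ways. Of 11 matched genes of MHC class I presentation 10 were tested, and 7 were higher by at least 1 (70.0%) and none was called lower (median over the 11 matched 1.88). The lowest difference among the 11 matched was -2.22, in a gene whose mean was dim in both groups. H2-K1 read 15.89, 15.90 and 16.20 in ieSC and 12.23 and 12.19 in the gonad, and H2-D1, a close copy, rose by 3.07 ± 0.11. The peptide loading gene Tapbp rose by 3.10 ± 0.08. Of 31 matched interferon response genes 27 were tested, 7 were higher (25.9%) and 9 lower (33.3%) by at least 1, with a median of -0.03. Oasl1 rose by 4.52 ± 0.31 and Ifit3 by 2.61 ± 0.08, while the RNA sensor Ifih1 fell by 3.01 ± 0.24 and Oas1a by 2.80 ± 0.22.

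Metabolic genes moved gene by gene. Glycolysis matters in Sertoli cells because they feed germ cells with lactate. Of 21 glycolysis and lactate genes, 7 were higher by at least 1 (33.3%) and none lower (median 0.42), while 3 were called lower by less than 1. Aldoc read 17.72, 17.76 and 18.01 in ieSC and 14.27 and 14.15 in the gonad, and Pfkp and the pyruvate kinase Pkm rose by 2.23 ± 0.06 and 1.55 ± 0.07. Of 19 cholesterol synthesis genes, 2 were higher (10.5%) and 3 lower (15.8%) by at least 1 (median -0.03), both below the shares of all tested genes. Sc5d was at 1.62 ± 0.08 and Dhcr7 at -1.50 ± 0.06. Of 24 antioxidant genes, 6 were higher (25.0%) and 7 lower (29.2%) by at least 1 (median 0.31, and 0.20 without the MEF-ieSC array). The metallothionein Mt2 read 18.44, 18.47 and 18.41 in ieSC and 11.97 and 11.98 in the gonad, and its near-copy Mt1 rose by 4.58 ± 0.09. The extracellular superoxide dismutase Sod3 fell by 5.54 ± 0.11 and the glutathione transferase Gsta3 fell by 4.78 ± 0.14. Of 19 matched lipid genes 16 were tested, 5 were higher (31.2%) and 2 lower (12.5%) by at least 1 (median 0.54). Cidea, a lipid droplet protein, read 14.74, 14.91 and 15.32 in ieSC and 9.23 and 9.21 in the gonad, and Scd1 rose by 3.84 ± 0.08 while the perilipin gene Plin1 fell by 4.35 ± 0.11.

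Junction and basement membrane genes went both ways. Of 25 matched junction and epithelial genes 23 were tested, 10 were higher (43.5%) and 8 lower (34.8%) by at least 1. Cldn3, a claudin of the Sertoli barrier, read 15.21, 15.22 and 14.49 in ieSC and 9.07 and 9.12 in the gonad, and Pkp2 and Ocln rose by 2.78 ± 0.12 and 2.34 ± 0.25. Cdh1, the epithelial cadherin, read 7.04, 6.90 and 6.58 in ieSC and 11.83 and 11.70 in the gonad, and the connexins Gja1 and Gjb2 fell by 4.69 ± 0.20 and 4.66 ± 0.11. Of 17 basement membrane genes, 7 were higher (41.2%) and 5 lower (29.4%) by at least 1 (median 0.17). The laminin chain Lamb1 read 7.81, 7.92 and 9.10 in ieSC and 16.08 and 16.15 in the gonad, and Lama2 fell by 5.48 ± 0.18. The chains Lamb2 and Lama5 rose by 2.67 ± 0.07 and 2.98 ± 0.08, and the collagen Col4a6 by 2.58 ± 0.14.

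Retinoid and DNA methylation genes were mostly lower. Of 15 retinoid genes, 3 were higher and 10 lower (66.7%) by at least 1 (median -1.62). The binding protein gene Rbp4 fell by 6.37 ± 0.22 and Stra8, the meiotic entry gene that retinoic acid induces, by 5.03 ± 0.21. Cyp26b1 itself fell by 1.62 ± 0.11 and stayed bright. The receptor gene Rarg rose by 2.62 ± 0.13 and Rdh10 by 2.04 ± 0.07. Of 10 DNA methylation genes, 1 was higher and 5 lower by at least 1 (median -0.92). The de novo methyltransferase Dnmt3b read 9.87, 9.93 and 10.17 in ieSC and 13.02 and 12.98 in the gonad, its cofactor Dnmt3l fell by 1.50 ± 0.07, and Mbd2 rose by 1.31 ± 0.06.

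The ieSC of different origin differed from each other far less than from the gonad. Between TTF-ieSC (2 arrays) and MEF-ieSC (1 array), 2356 of 15316 genes passed an adjusted p under 0.05 (15.4%, limma, 7 groups), 361 of them by at least 1 (2.36%). A fit on these 3 arrays alone called 1125 genes. The lone MEF-ieSC array was taken to have the spread of the remaining groups. Nqo1, a quinone reductase, read 12.32, 12.39 and 8.17 in ieSC and 9.99 and 10.19 in the gonad, so the gonad lay between the origins and the pooled difference (0.87 ± 1.07, limma, adjusted p = 0.465) describes neither. Loxl1, a collagen crosslinker, read 14.07, 14.10 and 11.45 in ieSC and 13.21 and 13.28 in the gonad, and the position factor Tbx15 read 8.38, 8.45 and 5.75 in ieSC and 7.61 and 7.45 in the gonad. These 3 genes were chosen after their values were seen. In each the MEF-ieSC array was below the gonad and both TTF-ieSC arrays above it.

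Differences also followed chromosomes, a view added after the data were seen. Over the tested genes of chromosome 15 (632 genes) the median difference was 0.40, and 63.6% of genes were higher in ieSC. On chromosome 19 (529 genes) it was 0.37, with 66.5% higher. Over the 16 autosomes other than 15, 17 and 19, the median ran from -0.16 to 0.01 and the share of higher genes from 43.2% to 50.5%. On chromosome 15 the 3 ieSC arrays gave 0.39, 0.40 and 0.36, and when its genes were cut in order into 4 stretches of about equal gene number, the stretches had medians of 0.12 to 0.53. On chromosome 19 both TTF-ieSC arrays gave 0.45 and 0.43 and the MEF-ieSC array 0.24. On chromosome 17 (768 genes) both TTF-ieSC arrays gave 0.03 and 0.06 and the MEF-ieSC array 0.26. Set against their own fibroblasts, the medians of chromosome 15 were 0.44 in TTF-ieSC and 0.41 in MEF-ieSC, beside -0.05 to 0.16 and -0.11 to 0.08 on the 16 other autosomes. The X chromosome (591 genes) had a median of -0.30. Against the same gonad arrays its median was -0.29 in MEF, -0.48 in TTF, -0.23 in mature and -0.002 in immature Sertoli cells. Set against their own fibroblasts, TTF-ieSC gave -0.05 and MEF-ieSC -0.08 on the X chromosome. The arrays measured RNA only, and no cause was tested.

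**Figure D4:**
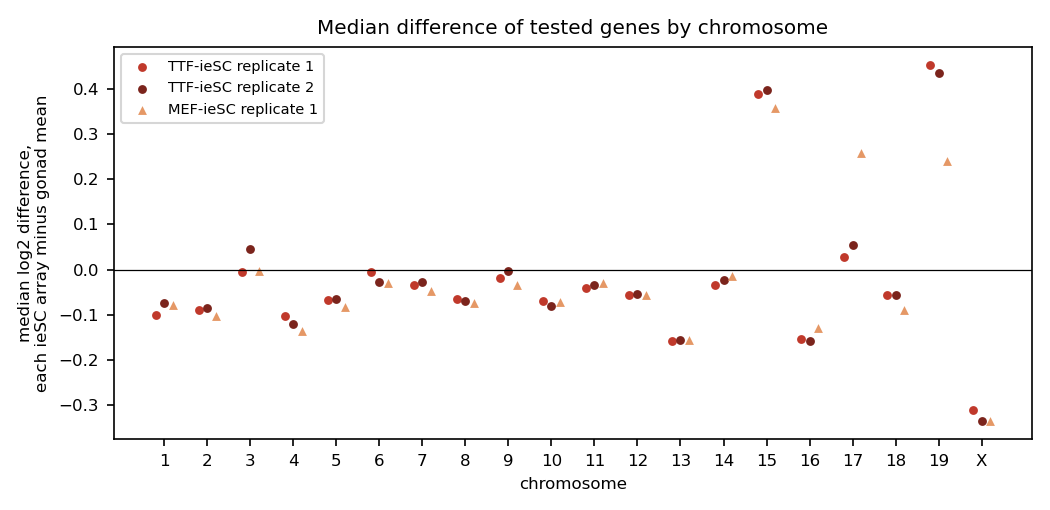
Median log2 difference of tested genes on each chromosome, for each ieSC array minus the mean of the 2 gonad arrays. Points are single ieSC arrays; chromosomes 15 and 19 lie above 0 on all 3, with 0.24 for MEF-ieSC on chromosome 19, and the X chromosome lies below.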

How the data were processed

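RNA of 3 ieSC arrays was compared with that of 2 arrays of 14.5 dpc gonad, and the other 8 of the 13 arrays entered the fit's estimate of the spread and the choice of features. The authors deposited log2 signals that shared 1 median and 1 75th percentile across arrays. The submitters' processing notes name limma, with no version or role, and background treatment is not given in the sources used here. Gene names came from the platform's table, updated through RefSeq (GRCm38.p6), 29050 by accession, 2061 by symbol and 349 by synonym, and 5 kept the platform's name. Genes with several features were represented by the one with the highest mean over the 13 arrays.

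Differences were fitted with limma 3.58.1 in R 4.3.3 on all 13 arrays in 6 groups, with the ieSC pooled (7 residual and 2.47 prior degrees of freedom). TTF-ieSC and MEF-ieSC were compared with 7 groups (6 residual and 2.75 prior degrees of freedom). Adjusted p-values are Benjamini-Hochberg over all 15316 tested genes, called under 0.05. The fit was also run on simulated data with independent noise and few changed genes. Most genes differed in the real data, so that run says nothing on the calls made here. Nothing says that replicates were separate animals or cultures, so p-values reflect no more than array-to-array spread, possibly technical, and the number of arrays limits the precision.

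The comparison and the 36 gene lists (725 genes, 688 matched) were chosen with earlier results of these data known. Lists are described by counts and medians, with no test of the list. Named genes are the 5 factors, the 10 largest rises and falls with arrays that did not overlap, up to 3 rises and 3 falls per list, members of the Sertoli, germ cell and Leydig lists, and the first 3 members of the other cell type lists. Lhx9, Cbx2, Sry, Ptch1, Ihh, Hoxd11, Igf2, H19, Mki67, Nqo1, Loxl1, Tbx15, the 4 printed promoters and the view by chromosome fall outside that rule and were chosen after values were seen. The alternatives were another scaling, other filters, the mean of features or features alone, other sets of arrays and groups, a variance trend with robust fitting, array weights, a minimum difference, and each replicate left out.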

Additional observations from a re-analysis of the deposited data

Results flagged for a closer look

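For 19 of the 229 tested genes named in the text, the difference from the gonad was not the same in TTF-ieSC and MEF-ieSC. In these the log2 difference between the origins was at least 1 and its own adjusted p (limma, 7 groups, 2 TTF-ieSC arrays against 1 MEF-ieSC array) was under 0.05. Over all tested genes the same held for 361 (2.36%). The named genes were chosen from these same data, some after their values were seen, so the 19 cannot be read against that share. With groups of at most 3 arrays, no single array was tested as standing apart.

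Higher in TTF-ieSC than in MEF-ieSC were the quinone reductase Nqo1 by 4.19, the hormone receptor Fshr by 3.64, the meiotic genes Hormad1 by 2.72 and Sycp1 by 1.68, the position factor Tbx15 by 2.66 and the matrix enzyme Loxl1 by 2.64. The same direction was found for Adh1 by 1.59, Cyp11b1 by 1.47, Hbb-y by 1.36 and Emx2 by 1.32. Of these 10 genes, Fshr, Hormad1, Sycp1, Adh1, Cyp11b1, Hbb-y and Emx2 were dim on all 3 ieSC arrays, so these differences lie between dim values.

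Lower in TTF-ieSC, with TTF-ieSC minus MEF-ieSC in each case, were Tyrobp at -1.64, the globins Hba-a2 at -1.51 and Hba-a1 at -1.29, Cdkn1c at -1.39, Aard at -1.33, Oasl1 at -1.26, Lamb1 at -1.23, Fabp7 at -1.22 and Hsd3b6 at -1.13. Of these 9, Tyrobp, Cdkn1c, Aard, Fabp7 and Hsd3b6 were dim on all 3 ieSC arrays.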

How the results depend on the processing

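No paired analysis was possible because the replicate numbers are only accession order. Each replicate left out in turn gave 11634 to 12726 called genes (5628 to 6169 higher, 6003 to 6557 lower), and 1576 to 1614 between TTF-ieSC and MEF-ieSC. A filter at the 75th percentile tested fewer genes and called 8372 (3989 higher, 3583 by at least 1). Features tested alone gave 18924 calls, 9497 of them higher. A minimum difference of 1 left 5660 (2501 higher, 3159 lower). A fit on the 3 ieSC arrays alone called 1125 genes between the origins. The other alternatives kept the counts within 1.5 times. Scaling to the 75th percentile gave 12575 calls, but the arrays already shared that percentile, so this setting could change little.

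Of 36 list medians, 2 crossed 0. The interferon median was 0.0894 with the mean of features, 0.0498 with TTF-ieSC alone, 0.0402 with MEF-ieSC alone, and -0.093 to 0.0503 with a replicate left out. The cholesterol median was 0.0149 with the mean of features and -0.0534 to 0.0043 with a replicate left out. The cause was not tested.

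Of 3399 values of 229 named genes, 3320 kept direction and call, 28 lost the call, 18 gained it and 33 changed sign, in 20 genes. With the mean of features, Kdr was -5.76, Nanog -3.19, Rhox8 -1.21, Sall4 -0.71 and Foxl2 0.13. With TTF-ieSC alone, Col1a1 was -0.12, Fgf9 0.0228, Loxl1 0.84 and Tbx15 0.89. With MEF-ieSC alone, H19 was 0.50, Col2a1 0.16, Kdr -0.0038, Rhox8 -0.10 and Nqo1 -1.92. With array weights, Col1a1 was -0.0905, Loxl1 0.73 and Tbx15 0.78. H19 was 0.12 with the origins weighted equally and Tbx15 0.0017 with the other scaling. With a replicate left out, H19 ran from -0.26 to 0.14, Kdr from -0.0484 to 0.0907, Rhox8 from -0.0303 to 0.18, Col2a1 from -0.17 to 0.0111, Col1a1 from -0.12 to 0.26, Fgf9 from -0.33 to 0.0228, Loxl1 from -0.49 to 0.84 and Tbx15 from -0.46 to 0.89. The calls of Krt8, Erbb4, Jund, Gramd1b, Nr2f1 and Dcn were lost without 1 or more single replicates, with differences of 0.19 to 0.43, 0.43 to 0.48, -0.31 to -0.20, -0.27 to -0.16, -0.31 to -0.21 and 0.64 to 1.11. Falls to a dim level are limited by the unknown background.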

Other observations

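Genes of the Y chromosome were dim in ieSC, with 1 exception. Of 3 matched Y genes in the list 2 were tested, and both were lower by at least 1, with a median of -2.55 over the 3. Eif2s3y, a translation factor subunit, read 5.15, 5.08 and 6.00 in ieSC and 13.40 and 13.30 in the gonad, a fall of 7.94 ± 0.23 (limma, adjusted p = 5.74e-10). Uty read 5.35, 6.04 and 4.52 in ieSC and 7.88 and 7.82 in the gonad. Kdm5d was dim on all 5 arrays and was not tested. The exception was Uba1y, outside the list, which read 10.84, 10.87 and 10.81 in ieSC and 11.97 and 11.95 in the gonad, while its other feature gave a difference of -8.40. Xist, the RNA of the inactive X, was dim on all 5 arrays, at 5.94, 5.12 and 5.53 in ieSC and 7.02 and 6.95 in the gonad. On the fibroblast arrays, the mean of Eif2s3y was 5.97 in TTF and 11.09 in MEF, and that of Xist was 9.84 in TTF and 9.26 in MEF. These genes were chosen after their values were seen, and no cause was tested.

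The chromosome medians of the other groups of the series, set against the same gonad arrays, were lower than those of ieSC on chromosome 15. They were -0.06 in immature Sertoli cells, -0.15 in mature Sertoli cells, -0.01 in MEF and -0.12 in TTF. On chromosome 19 they were 0.02, -0.11, -0.07 and -0.01 in the same order. These groups share the gonad arrays with the ieSC comparison.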
